A study of Mus musculus with 6 samples.

Results

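The 14-3-3 protein family was followed in the brains of E18.5 mouse embryos (late gestation) through all probe sets of the array that were annotated to exactly 1 of 7 genes: Ywhaz, Ywhab, Ywhae, Ywhag, Ywhah, Ywhaq and Sfn. A probe set is a group of short array probes that together give 1 intensity for a transcript. These 7 of 18193 singly named genes held 31 of the 45037 probe sets, with 8 for Ywhaq, 7 for Ywhaz, 6 for Ywhab, 4 each for Ywhae and Ywhag, and 1 each for Ywhah and Sfn. No probe set annotated to several genes named a family member. The family was chosen because the Ywhaz probe set 1436981_a_at, one of the dimmer Ywhaz probe sets, had passed the threshold of the comparison between mutant and wild-type brains. That probe set is therefore given as a description, without its p.

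The 14-3-3 proteins are small acidic adaptor proteins that pair into dimers and bind other proteins at short stretches carrying a phosphorylated serine or threonine. Binding can hold a partner in the cytoplasm, shield it from phosphatases or change its activity. Most members are abundant in brain, from which the family was first isolated, and Sfn (stratifin, 14-3-3 sigma) is best known from epithelia such as the epidermis. Ywhae (14-3-3 epsilon) is known for a role in the migration of cortical neurons.

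The 3 Foxf2 mutant and 3 wild-type samples were whole brains of embryos on a C57/bl6 background, with 1 Affymetrix array each. The labels do not describe the Foxf2 allele or say whether an array held RNA of 1 embryo or of several, and since separate embryos are not stated, p-values measure only how much the 6 samples vary, which may be technical. In whole-brain RNA, fewer cells of a type and less RNA per cell cannot be told apart. Foxf2, a forkhead transcription factor gene of brain pericytes, read 8.06, 3.31 and 7.57 on the mutant arrays and 18.6, 24.4 and 13.8 on the wild-type arrays on its brighter probe set, which lay below the filter on dim probe sets.

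Single arrays stood apart in transcripts from outside the family. The summed intensity of 5 skeletal muscle markers reached 1025 on mutant array 3, against at most 95.7 on the wild-type arrays, and that of 5 pituitary markers reached 277 on mutant array 3 and 1990 on wild-type array 3. Acta1 (skeletal muscle actin) was the brightest of the muscle list and Gh (growth hormone) the brightest of the pituitary list. The Y-linked Eif2s3y read 260 on mutant array 2 and at most 2.12 on the other 5 arrays. The 6 neuron markers, led by Stmn2, were bright in both groups. They summed to 12190 to 12690 on the mutant arrays and 12290 to 12620 on the wild-type arrays. The 5 astrocyte and radial glia markers, led by Fabp7, summed to 5405 to 5862 on the mutant arrays and 5027 to 5647 on the wild-type arrays. Most of this sum was Fabp7, with means of 4949.5 in mutant and 4665.6 in wild-type brains, while Gfap was dim, with means of 26.6 and 19.1. The 5 endothelial markers, led by Cldn5, summed to 494 to 570 on the mutant arrays, below the 669 to 698 on the wild-type arrays, with 0 of 5 past the threshold. Of these 5, Cldn5 had a log2 difference of -0.43 (limma adjusted p = 0.0622), Kdr of -0.41 and Tek of -0.26, while Pecam1 had 0.02 and Cdh5 0.29. The 5 pericyte markers, led by Rgs5, summed to 849 to 942 on the mutant arrays and 895 to 1242 on the wild-type arrays, also with 0 of 5 past the threshold. All 5 had a negative log2 difference: Atp13a5 -0.51, Rgs5 -0.33, Pdgfrb -0.25, Abcc9 -0.08 and Kcnj8 -0.05. For Atp13a5 and Pdgfrb every mutant value lay below every wild-type value, as for 9.38% of all tested probe sets. The part of these cells and arrays in the 14-3-3 values was not tested, apart from leaving out each array in turn.

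Intensities below are the deposited array values on a linear scale, and differences are of log2(intensity + 16), mutant minus wild type, so that 1 unit is a doubling for a bright probe set. They were tested with limma across 27022 probe sets, with an adjusted p of 0.05 as the threshold. Of the 31 family probe sets, 29 passed the filter on dim probe sets. Sfn and 1 probe set of Ywhag did not. Over the 29, 2 were higher in the mutant past the threshold, the Ywhaz probe set for which the family was chosen and the Ywhaq probe set 1436846_x_at, and 0 were lower. Of all tested probe sets, 0.389% passed the threshold, 0.366% higher and 0.0222% lower, and since the family was chosen from this comparison nothing is read from the count. Past the threshold the differences were 1.33 (Ywhaz) and 0.88 (Ywhaq), and the nearest family probe set outside it was Ywhae 1435702_s_at, with 0.75.

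The intensities of all 31 probe sets by array show these 3 probe sets as the widest separations between the groups.

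**Figure D1:**
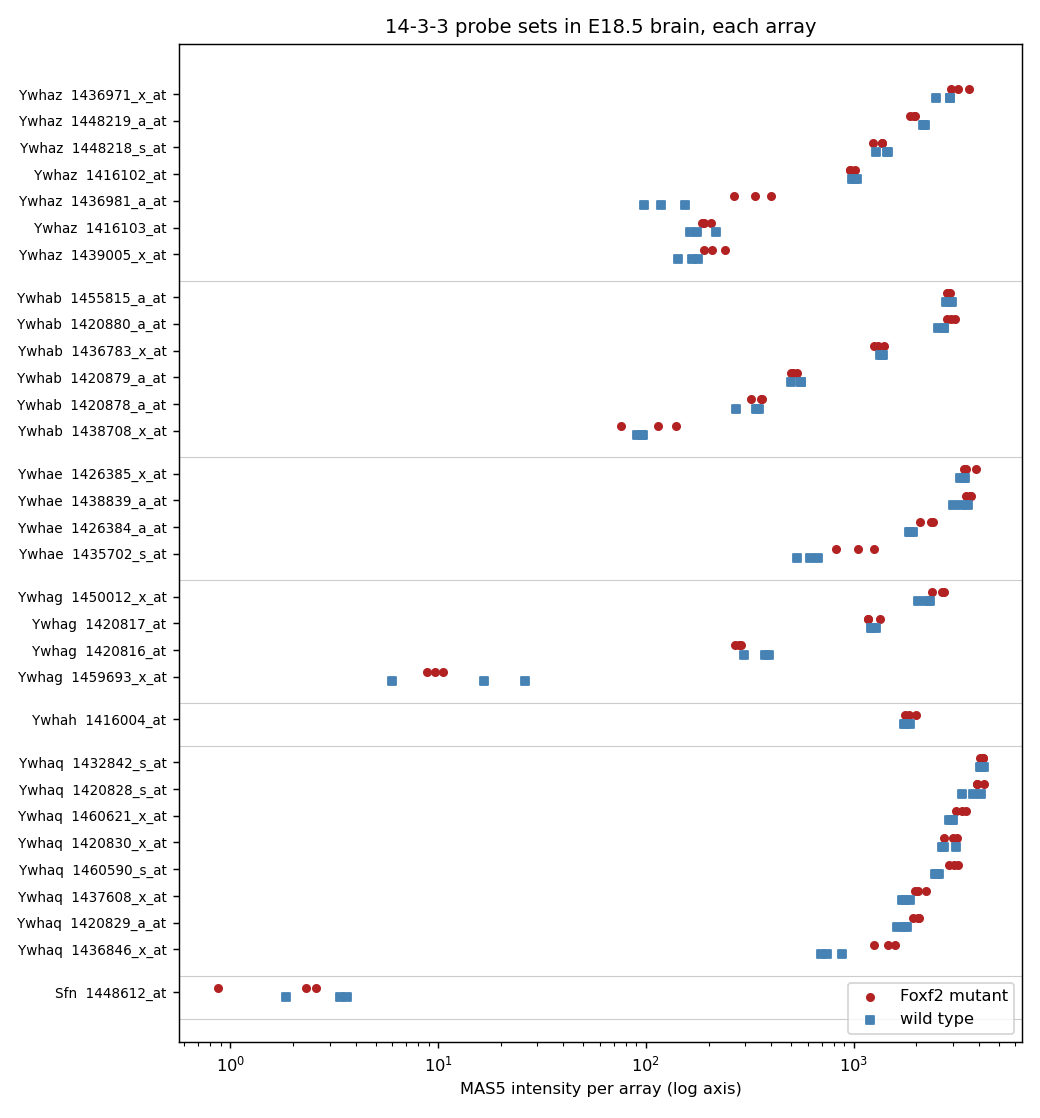
MAS5 intensity (log axis) of each of the 31 probe sets of the 14-3-3 genes on each of the 3 Foxf2 mutant arrays (circles) and 3 wild-type arrays (squares), with probe sets ordered within a gene by mean log2 level. The groups lie far apart for Ywhaz 1436981_a_at, Ywhaq 1436846_x_at and Ywhae 1435702_s_at, and close together for most others.

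Ywhaz encodes 14-3-3 zeta, a member with many known partners in kinase signalling. Its 1436981_a_at probe set read 267, 335 and 399 on the mutant arrays and 98.2, 118 and 154 on the wild-type arrays. Every mutant value exceeded every wild-type value, with means of 333 ± 66.3 and 123 ± 28.1 (SD, n = 3 each), a ratio of 2.70 and a log2 difference of 1.33 ± 0.17 (SE). Among the 27022 tested probe sets it ranked 8 by the size of a positive difference.

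The other 6 Ywhaz probe sets had smaller differences, in both directions. The brightest, 1436971_x_at, read 3180, 2948 and 3572 on the mutant arrays and 2478, 2895 and 2909 on the wild-type arrays. Its groups were separated by a narrow gap, and its log2 difference of 0.23 ± 0.09 (SE) did not pass the threshold (limma adjusted p = 0.314). The next brightest, 1448219_a_at, went the other way. It read 1983, 1876 and 1958 on the mutant arrays, all below the 2178, 2160 and 2211 on the wild-type arrays, with a log2 difference of -0.17 ± 0.05 (SE; limma adjusted p = 0.223).

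Of the remaining Ywhaz probe sets, 1 separated the groups. On 1439005_x_at, which lay at a similar brightness to 1436981_a_at, the mutant arrays read 191, 209 and 241 and the wild-type arrays 143, 167 and 177. The groups did not overlap, and the log2 difference was 0.36 ± 0.11 (SE; limma adjusted p = 0.198). On 1416103_at, also of similar brightness, the groups overlapped, with means of 194 ± 10.2 in mutant and 185 ± 28.2 in wild-type brains (SD, n = 3 each) and a difference of 0.07 ± 0.11 (SE). The groups also overlapped on 1448218_s_at (difference -0.07) and 1416102_at (-0.04). Over the 6 other Ywhaz probe sets the median difference was 0.01, with a range of -0.17 to 0.36.

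Within each array, the log2 level of 1436981_a_at lay below the mean of the other 6 Ywhaz probe sets by a gap that was smaller in the mutant. The gap was -1.56, -1.29 and -1.11 on the mutant arrays and -2.76, -2.63 and -2.36 on the wild-type arrays. The groups did not overlap, and the gap differed by 1.27 log2 units. The probe set was chosen for its rise, and that choice itself favours a smaller gap in the mutant. The gap is therefore a description and carries no test. The gaps given below for Ywhaq and Ywhae are likewise those of the probe set with the largest difference in its gene.

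Ywhaq encodes 14-3-3 theta, also called tau. All 8 of its probe sets read higher in the mutant as deposited, 7 of 8 after median centring of the arrays and 6 of 8 after quantile normalization. The median difference was 0.19, 0.14 and 0.12 under the 3 scalings. In 5 of the 8 the mutant values exceeded every wild-type value, a separation seen in that direction for 10.9% of all tested probe sets. Among these were 1460621_x_at, 1437608_x_at and 1436846_x_at, with the suffix _x_at that is described below. Of all tested _x_at probe sets, 28.9% had this separation.

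The dimmest Ywhaq probe set, 1436846_x_at, rose past the threshold. It read 1249, 1456 and 1585 on the mutant arrays and 878, 697 and 743 on the wild-type arrays. Every mutant value was again the higher, with means of 1430 ± 169 and 772 ± 94.0 (SD, n = 3 each), a ratio of 1.85 and a log2 difference of 0.88 ± 0.11 (SE; limma adjusted p = 0.0215). The call was lost without the variance trend (adjusted p = 0.0878), with sex as a covariate (0.0910), and without mutant array 2 (0.0918) or 3 (0.0942) or wild-type array 1 (0.0944), 2 (0.115) or 3 (0.0603). These are not all separate alternatives. Mutant array 2 was the only one with Y-linked signal, so the sex covariate takes up that array and gives the same difference, 0.86, as leaving it out. The log2 difference stayed between 0.80 and 0.97 over the 17 alternatives that hold this probe set.

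The other 7 Ywhaq probe sets had differences of 0.0053 to 0.27, none past the threshold. The nearest to it was 1460590_s_at, which read 2883, 3161 and 3045 on the mutant arrays and 2473, 2562 and 2508 on the wild-type arrays. This separation without overlap gave a log2 difference of 0.27 ± 0.06 (SE; limma adjusted p = 0.0985). The brightest, 1432842_s_at, read 4210, 4046 and 4206 on the mutant arrays and 4232, 4063 and 4122 on the wild-type arrays, overlapping throughout, with a difference of 0.0053 ± 0.05 (SE) that turned to -0.049 with median centring and -0.076 with quantile normalization. The gap of 1436846_x_at to the mean of the other 7 was -1.24, -0.97 and -0.95 log2 units on the mutant arrays and -1.53, -1.94 and -1.86 on the wild-type arrays. The RefSeq gene table also lists the pseudogenes Ywhaq-ps1, Ywhaq-ps2 and Ywhaq-ps3, and whether Ywhaq probe sets read them was not tested.

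Ywhae had 4 probe sets, all higher in the mutant as deposited and after median centring, and 3 of 4 after quantile normalization. As in Ywhaq, the dimmest had the largest difference within the gene. On 1435702_s_at the mutant arrays read 1046, 826 and 1254 and the wild-type arrays 531, 674 and 614. The groups did not overlap, with means of 1042 ± 214 in mutant and 606 ± 72.0 in wild-type brains (SD, n = 3 each), a ratio of 1.72 and a log2 difference of 0.75 ± 0.14 (SE), which missed the threshold (limma adjusted p = 0.0743). It passed with an offset of 1 (adjusted p = 0.0473) and with the variance moderated over tested probe sets only (0.0359).

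The other 3 Ywhae probe sets were brighter and had smaller differences. On 1426384_a_at the mutant arrays read 2090, 2359 and 2395 and the wild-type arrays 1861, 1849 and 1919, again without overlap, and the difference of 0.28 ± 0.07 (SE) did not pass (limma adjusted p = 0.123). The 2 brightest, 1426385_x_at and 1438839_a_at, overlapped between the groups and had differences of 0.08 and 0.12. The gap of 1435702_s_at to the mean of the other 3 was -1.46, -1.94 and -1.30 log2 units on the mutant arrays and -2.38, -1.96 and -2.13 on the wild-type arrays, with mutant array 2 next to wild-type array 2.

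Each array's intensity over the wild-type mean of the same probe set shows how far 1 probe set stood apart within Ywhaz, Ywhaq and Ywhae. Their gap differences of 1.27, 0.72 and 0.59 log2 units were larger than those of Ywhag (0.40) and Ywhab (0.14), which are not drawn. In Ywhag the probe set with the largest difference was the brightest, 1450012_x_at. In Ywhab it was 1438708_x_at, with gaps of -3.61, -3.19 and -2.94 on the mutant arrays, overlapping the -3.40, -3.40 and -3.36 on the wild-type arrays.

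**Figure D2:**
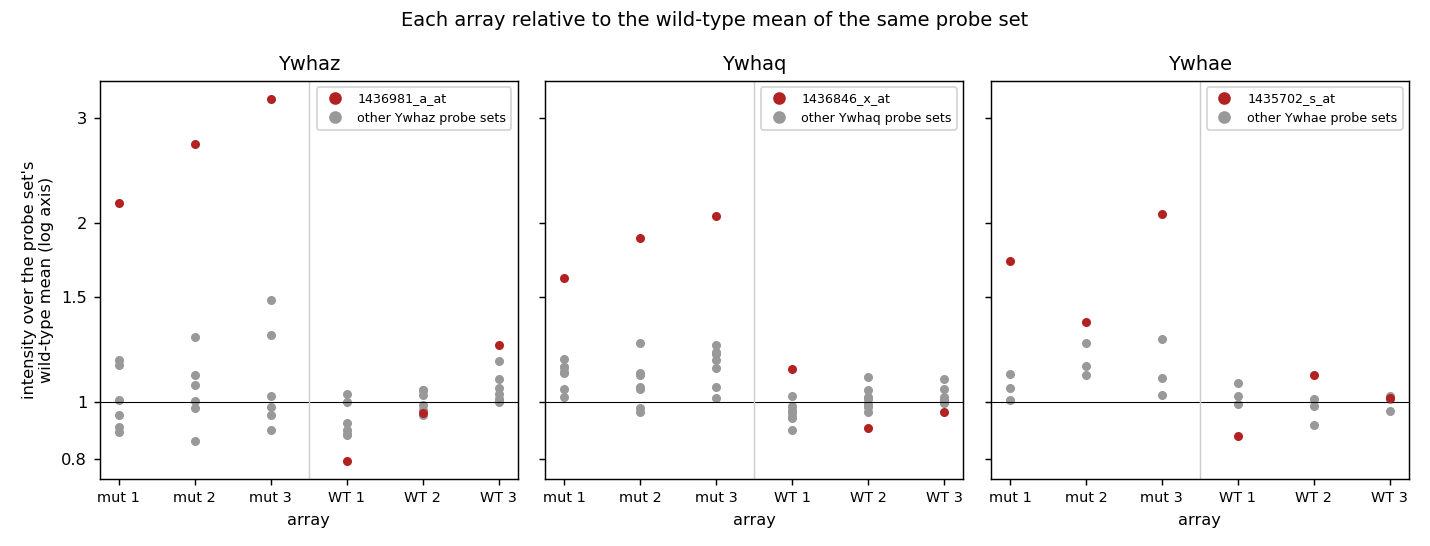
Intensity of each tested Ywhaz, Ywhaq and Ywhae probe set on each array, divided by the wild-type mean of that probe set (log axis), with mutant (mut) arrays left of wild-type (WT) arrays. The probe set with the largest difference in each gene is red and the others are grey; the red points of the mutant arrays lie above the grey ones in all 3 genes, by least on mutant array 2 for Ywhae.

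Ywhag encodes 14-3-3 gamma, a member enriched in brain. Its 3 tested probe sets went in different directions. The brightest, 1450012_x_at, read 2378, 2721 and 2646 on the mutant arrays and 2246, 2040 and 2331 on the wild-type arrays, a separation without overlap and a log2 difference of 0.23 ± 0.07 (SE; limma adjusted p = 0.243). On 1420816_at the mutant arrays read 285, 279 and 268, all below the 392, 376 and 297 on the wild-type arrays, and the difference was -0.33 ± 0.10 (SE; limma adjusted p = 0.216). On 1420817_at the groups overlapped, with a difference of -0.02. The fourth Ywhag probe set, 1459693_x_at, was too dim to be tested, at no more than 10.5 on the mutant arrays and 26.1 on the wild-type arrays.

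Ywhab encodes 14-3-3 beta, a partner of Raf kinases. Its 6 probe sets had differences of -0.07 to 0.16 with a median of 0.05, and 0 passed the threshold (lowest limma adjusted p = 0.337). At an unadjusted p under 0.05 in limma, 1 of the 6 read higher and 0 lower, beside 7.76% and 5.79% of all tested probe sets. That one, 1420880_a_at, read 2820, 2928 and 3057 on the mutant arrays and 2553, 2715 and 2716 on the wild-type arrays. Its groups did not overlap, and the difference was 0.14 ± 0.06 (SE). The groups overlapped on the other 5. The brightest of them, 1455815_a_at, had means of 2854 ± 46.8 in mutant and 2896 ± 94.8 in wild-type brains (SD, n = 3 each).

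Ywhah encodes 14-3-3 eta and had 1 probe set, 1416004_at. It read 1756, 1993 and 1846 on the mutant arrays and 1876, 1786 and 1740 on the wild-type arrays. The groups overlapped, with a log2 difference of 0.05 ± 0.07 (SE; limma adjusted p = 0.789) that turned to -0.0048 with median centring. Sfn, whose 1 probe set lay below the filter, read 2.58, 2.31 and 0.866 on the mutant arrays and 3.65, 1.85 and 3.35 on the wild-type arrays, near the floor of the array in every brain. Of 5 keratinocyte markers, Krt5, Krt14 and Trp63 were also too dim to be tested, and the brightest, Krt10, read 159 to 198 on the mutant arrays and 175 to 211 on the wild-type arrays.

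One value per gene, from the probe set with the highest mean, gave 6 tested genes. Their differences ran from -0.02 (Ywhab) through 0.0053 (Ywhaq), 0.05 (Ywhah) and 0.08 (Ywhae) to 0.23 for both Ywhag and Ywhaz, with 0 past the threshold in limma and 2, Ywhag and Ywhaz, higher at an unadjusted p under 0.05. Of the brightest probe sets of all genes, 0.207% passed the threshold and 7.49% were higher at the unadjusted level. Ywhag and Ywhaz were both read here on _x_at probe sets, a suffix described below, of which 69.5% of all tested read higher. The differences of all 29 tested probe sets, with their standard errors, show the spread within each gene.

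**Figure D3:**
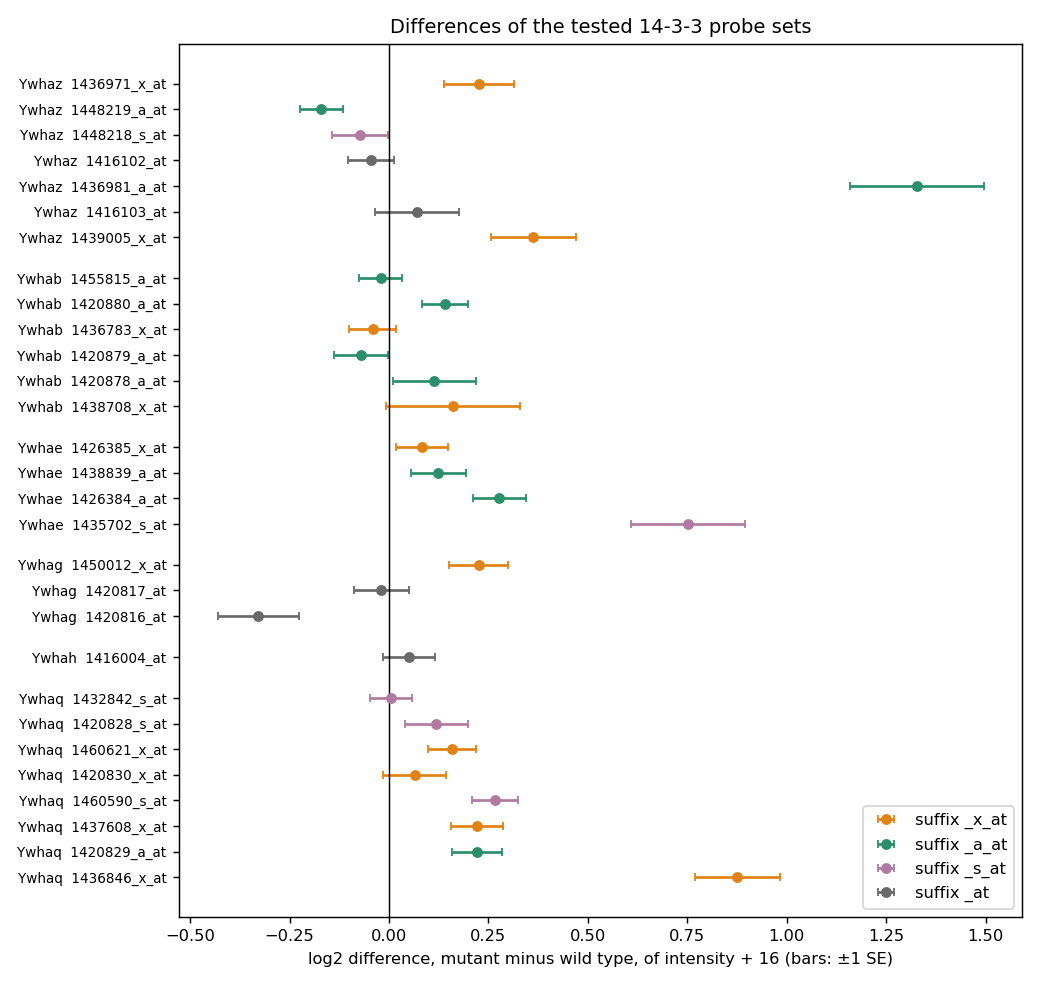
Log2 difference, mutant minus wild type, of each of the 29 tested 14-3-3 probe sets, with bars of 1 SE either way and colours for the probe set suffix. The 3 that lie outside the range of -0.33 to 0.36 are Ywhaz 1436981_a_at (1.33), Ywhaq 1436846_x_at (0.88) and Ywhae 1435702_s_at (0.75).

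Over the 29 tested probe sets, 21 read higher and 8 lower as deposited, beside 48.6% higher over all tested probe sets, 19 and 10 after median centring, and 18 and 11 after quantile normalization. The median difference was 0.12 as deposited, also without the chosen probe set, 0.07 after median centring and 0.05 after quantile normalization, beside -0.0065, -0.06 and -0.02 over all tested probe sets. Without overlap, the mutant arrays lay above the wild-type arrays for 11 of the 28 probe sets other than the chosen one and below them for 2, shapes that 10.9% and 9.38% of all tested probe sets had. At an unadjusted p under 0.05, and leaving out the chosen Ywhaz probe set, 11 of 28 were up and 2 down in the mutant, beside 7.76% and 5.79% of all tested probe sets. These probe sets share genes and partly the same transcripts, so they are not independent readings. Mean level and difference had a Spearman correlation of -0.04 and a Pearson correlation of -0.24 across the 29 probe sets, as a description. Both values include the chosen probe set, and without it the Spearman correlation was 0.05 over 28.

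The suffix of an Affymetrix probe set tells how specific its probes were when the array was designed. A plain _at probe set matched 1 transcript, _a_at transcripts of the same gene, _s_at several transcripts that may come from different genes, and _x_at holds some probes that also match unrelated sequences. Of the 29 tested probe sets, 10 were _x_at, 9 _a_at, 5 _s_at and 5 _at. The _x_at members had a median difference of 0.19, with 9 of 10 higher and 6 of 10 above the wild-type arrays without overlap. Over all 1627 tested _x_at probe sets the median was 0.10, with 69.5% higher, 28.9% above without overlap and 2.46% past the threshold, the last beside the 1 called _x_at member, Ywhaq 1436846_x_at. The _a_at members had a median of 0.12, beside -0.01 over all 3561 of that suffix, and without the chosen Ywhaz probe set the median was 0.12 and 3 of 8 lay above without overlap, beside 10.4%. The _s_at members had a median of 0.12, beside -0.0034 over all 1671, and the _at members had -0.02, beside -0.01 over all 20163. Among the 5 _at members 0 lay above without overlap and 1 below, the Ywhag probe set 1420816_at. Over all tested _at probe sets these shares were 9.32% and 9.39%. The part of cross-matching probes in the higher values was not tested.

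**Figure D4:**
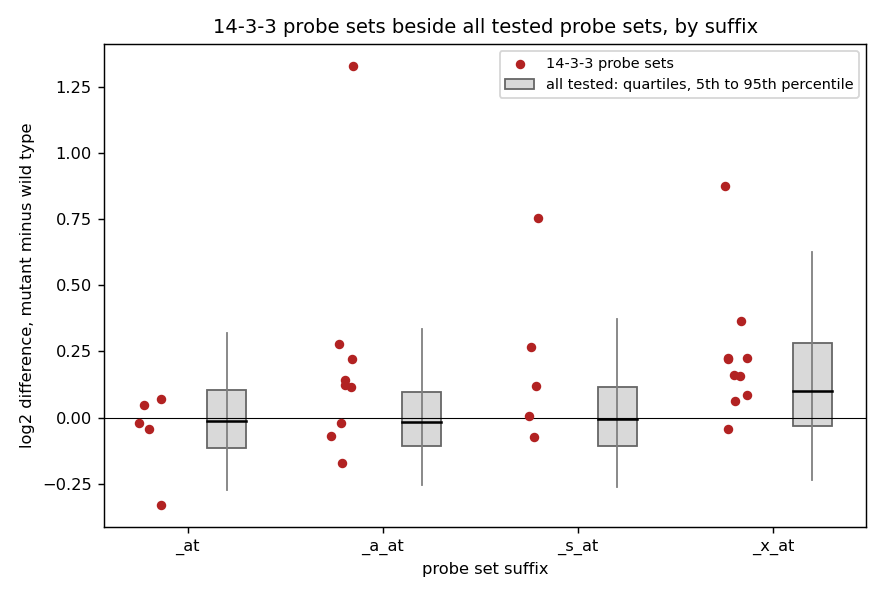
Log2 difference, mutant minus wild type, of the 29 tested 14-3-3 probe sets (red points) by suffix, beside all tested probe sets of that suffix (box from the lower to the upper quartile with the median line, whiskers from the 5th to the 95th percentile). All tested _x_at probe sets are themselves shifted upwards, with a median of 0.10, and the 14-3-3 medians are 0.19 for _x_at, 0.12 for _a_at and _s_at and -0.02 for _at.

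Genes of known 14-3-3 partners were read on 1 probe set each, the brightest. Of 58 listed genes, 55 were tested, and 0 passed the threshold in limma in either direction (lowest adjusted p = 0.142), while 3 were up and 3 down at an unadjusted p under 0.05, beside 7.49% up and 6% down over the brightest probe sets of all genes. Their median difference was -0.02, with a range of -0.28 to 0.32, and 23 read higher and 32 lower. Among 22 kinase and signalling partners the largest differences were those of Becn1, an autophagy gene, and Mark2, a microtubule affinity-regulating kinase gene. Becn1 read 455, 522 and 495 on the mutant arrays and 406, 409 and 359 on the wild-type arrays, without overlap (difference 0.32, limma adjusted p = 0.142). Mark2 had a difference of -0.26 with overlapping groups.

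Among 19 transcription and cell cycle partners, Cdc25c, a phosphatase gene of mitotic entry, had a difference of -0.28 and Cdkn1b, a gene of a cyclin-dependent kinase inhibitor, of 0.22. The groups overlapped for both. Cdc25c was dim, at 24.6, 7.52 and 8.46 on the mutant arrays and 20.6, 18.7 and 16.8 on the wild-type arrays. Among 14 neuronal and cytoskeletal partners, Arhgef7 had a difference of 0.27 (limma adjusted p = 0.211) and Ssh1, a cofilin phosphatase gene, of -0.26 (adjusted p = 0.283). Arhgef7 read 464, 442 and 492 on the mutant arrays and 369, 360 and 426 on the wild-type arrays, which do not overlap. Ssh1 read 182, 164 and 191 on the mutant arrays and 207, 201 and 241 on the wild-type arrays, lower in the mutant without overlap.

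The genes with the most similar pattern were listed for 2 of the 7 Ywhaz probe sets. Over the 6 arrays, the probe sets whose log2 level was most correlated with Ywhaz 1436981_a_at belonged to Chac2, Ptpn13, Paics, Ampd2 and Cenpl, with Pearson correlations of 0.997 to 0.998. Their own differences ran from 0.18 (Cenpl) to 0.54 (Ptpn13). For the brightest Ywhaz probe set, 1436971_x_at, they belonged to Hadhb, Ran, Mrps33, Rpl27 and Zfp202, with correlations of 0.988 to 0.996. These are the top of 23191 candidate probe sets over only 6 arrays that share their groups, and 361 and 98 of the candidates exceeded a correlation of 0.95, so the ranking is a description.

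Promoter sequences from RefSeq (GRCm38.p6, 250 bases before to 50 after the gene start) were matched for 5 of the 7 genes: Ywhae, Ywhag, Ywhah, Ywhaq and Sfn. The first 2 sequences below are shown because all tested probe sets of Ywhaq and Ywhae read higher as deposited, and that of Ywhah because its only probe set overlapped between the groups. Capitals mark the inverted CCAAT box ATTGG, or CCAAT on the other strand, and the cAMP response element TGACGTCA, which reads the same on both strands. Each runs 5′ to 3′ on the strand of its gene.
Ywhaq, chr12:21417387-21417686, minus strand: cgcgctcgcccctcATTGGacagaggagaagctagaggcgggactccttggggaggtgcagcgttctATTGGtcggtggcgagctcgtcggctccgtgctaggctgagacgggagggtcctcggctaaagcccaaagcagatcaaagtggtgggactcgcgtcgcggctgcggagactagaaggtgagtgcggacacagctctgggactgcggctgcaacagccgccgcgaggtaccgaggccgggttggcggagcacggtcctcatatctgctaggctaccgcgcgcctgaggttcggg
Ywhae, chr11:75732637-75732936, plus strand: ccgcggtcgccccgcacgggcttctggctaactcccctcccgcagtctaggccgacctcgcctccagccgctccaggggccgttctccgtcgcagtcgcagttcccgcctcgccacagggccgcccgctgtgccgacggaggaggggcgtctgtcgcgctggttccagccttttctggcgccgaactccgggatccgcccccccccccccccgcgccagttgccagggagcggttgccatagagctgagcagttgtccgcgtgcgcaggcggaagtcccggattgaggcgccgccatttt
Ywhah, chr5:33018566-33018865, plus strand: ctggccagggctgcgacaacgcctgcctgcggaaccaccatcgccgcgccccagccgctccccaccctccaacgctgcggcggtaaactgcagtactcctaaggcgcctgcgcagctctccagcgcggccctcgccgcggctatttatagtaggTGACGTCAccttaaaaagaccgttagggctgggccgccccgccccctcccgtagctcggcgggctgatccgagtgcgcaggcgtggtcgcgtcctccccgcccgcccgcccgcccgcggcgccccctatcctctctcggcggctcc

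Ywhaq held the ATTGG box at 2 places, a box that 37.9% of 27025 promoters of the same length (1 per gene) held at 1 place or more, among them 3 of the 5 family promoters (Ywhaq, Ywhag and Sfn). Ywhah held TGACGTCA, found in 1.88% of promoters and in none of the other 4 family promoters. The forkhead core TGTTTAC, or GTAAACA on the other strand, was in 3.55% of promoters and in 0 of the 5, which says only that these letters are not in these windows. GC content was 65.3% in the Ywhaq promoter and 71.7% in those of Ywhae and Ywhah. The motifs did not overlap each other in the printed sequences.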

How the data were processed

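The deposited table held 1 intensity per probe set and array, which the authors had computed with MAS5, per the submitters' processing notes, whose version is not given in the sources used here. The deposited intensities are on a linear scale and already scaled, the mean of each array without its lowest and highest 2% lying at 100, so arrays were not normalized again. Groups and replicate numbers came from the labels. Of 45101 probe sets, 64 controls were left out. Gene names came from the platform annotation, which gave 1 symbol to 34945 probe sets, several to 932 and none to 9160. The build behind the array is not given in the sources used here, and no probe set coordinates are printed.

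Values were analysed as log2(intensity + 16) in R 4.3.3 with limma 3.58.1 (lmFit, eBayes with a mean-variance trend over 45037 probe sets), two-sided. The offset makes fold changes of dim genes too small. P-values were adjusted by Benjamini-Hochberg over the 27022 probe sets whose mean log2 level reached the 40th percentile (intensity near 13.2). The fit was tested on simulated data. Members, partner lists and markers were chosen with earlier results of these data known. Named were all members, Foxf2, the 2 partners per list with the largest difference when none passed, the brightest marker per list, and the 5 genes most correlated with each of 2 Ywhaz probe sets. Eif2s3y, Gfap, Kdr, Tek, Pecam1, Cdh5, Atp13a5, Pdgfrb, Abcc9, Kcnj8, Krt5, Krt14 and Trp63 were named after their values were seen. Alternatives covered offset, filter, scaling, trend, array weights, replicate number, sex read from Y-linked signal, 1 probe set per gene and each array left out. Moderation over tested probe sets only was added after seeing the data. The number of arrays limits the precision.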

Additional observations from a re-analysis of the deposited data

How the results depend on the processing

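The count of 2 family probe sets past the threshold became 0 in limma without the variance trend (10 of 29 at unadjusted p under 0.05). The count was also 0 with sex as a covariate (12 of 29). With 1 probe set per gene it was 0 by construction (2 of 6 at the unadjusted level). That setting keeps only the brightest probe set of a gene, so neither of the 2 called probe sets entered it. The count ran from 0 to 2 with an array left out. It was 0 without mutant array 2 (12 at the unadjusted level) or 3 (11), or without wild-type array 1 (12) or 2 (13), and 1 without wild-type array 3. It was 3 with an offset of 1 and with moderation over tested probe sets only, and 2 under the other alternatives. The count over all probe sets, 105, was 181 with an offset of 1, 64 with an offset of 64, 52 without a filter, 167 with a filter at the 60th percentile, 56 with median centring, 12 with 1 probe set per gene and 225 with moderation over tested probe sets only. It was 0 without the trend (3497 at the unadjusted level) and with sex as a covariate (3224), which takes up mutant array 2, and 0 to 34 with an array left out. The cause of these shifts was not tested.

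As a description, the difference of Ywhaz 1436981_a_at stayed between 1.08 and 1.48 under 17 alternatives, which reuse the same arrays. Wherever the family count above was 0, this probe set did not pass the threshold or was not entered. The median of the other Ywhaz probe sets became 0.23 with 1 probe set per gene, which leaves only the brightest. Differences near 0 changed sign. With quantile normalization these were Ywhae 1426385_x_at (-0.018), Ywhaq 1432842_s_at (-0.076) and Ywhaq 1420830_x_at (-0.029). With median centring they were Ywhah 1416004_at (-0.0048) and Ywhaq 1432842_s_at (-0.049). With an array left out, ranges crossed 0 for Ywhaz 1416103_at (-0.0097 to 0.18), Ywhab 1455815_a_at (-0.046 to 6e-04), Ywhab 1438708_x_at (-0.0055 to 0.37), Ywhag 1420817_at (-0.084 to 0.014) and Ywhaq 1432842_s_at (-0.0080 to 0.024). No partner gene passed under any of the 18 alternatives.

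With the replicate number as a block 220 probe sets passed, 2 of them of the family, the same 2 as without it. The samples share only a number: deviations from the group means correlated by 0.186, 0.134 and 0.092 between same-numbered arrays, each array correlating best with its own number, which is a hint from the data and not the design.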
